A study of Saccharomyces paradoxus and Saccharomyces cerevisiae and Nakaseomyces glabratus with 58 samples.

Results

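The genes described here were 60 Saccharomyces cerevisiae genes for factors that assemble, mature and export the large (60S) ribosomal subunit, together with their orthologs in 5 other yeasts. The S. cerevisiae genes were taken from a list of open reading frames chosen by function, and the other species' genes were every row of the authors' orthology table that carried a listed gene as its S. cerevisiae ortholog. The rule used no measured value, but the list was drawn up with earlier results of these data known. They came to 363 of the 36369 rows of the deposited count tables: 60 of 6717 in S. cerevisiae, 63 of 6038 in Saccharomyces paradoxus, 64 of 5461 in Candida glabrata (labelled Nakaseomyces glabratus), 63 of 5926 in Naumovozyma castellii, 51 of 5318 in Kluyveromyces lactis and 62 of 6909 in Schizosaccharomyces pombe. NOP7 and SPB4 in S. paradoxus, 10 genes in K. lactis and 3 in S. pombe had no matching row and were not analysed here. The 10 K. lactis genes do occur in the authors' deposited microarray values, all under ids that begin with KLLA0E, so a missing match does not mean a missing ortholog. RLP24, CIC1, REI1 and SSF1 share an orthogroup with a paralog, so 9 S. paradoxus, 7 C. glabrata, 7 N. castellii, 4 K. lactis and 7 S. pombe rows could not be assigned to a single S. cerevisiae gene and are named by their orthogroup. The orthogroup of RLP24 also holds the ribosomal protein genes RPL24A and RPL24B. Its rows are therefore counted among the ribosomal protein rows as well, and some may not be assembly factors.

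The study sequenced polyadenylated RNA from strains altered in SFP1, a zinc-finger transcription factor gene, and from the wild type of the same species. Each group analysed here had 3 libraries, and the labels name the culture medium only as BMW. Cultures were taken in log phase (optical density between 0.6 and 0.8) or in lag phase 30 and 60 min after glucose was given back. Lag phase is described here for S. paradoxus, and 1 wild-type S. cerevisiae sample of 60 min, labelled as unused, was not analysed here. In S. cerevisiae the log-phase groups were delta sfp1, a strain with HA-tagged Sfp1, and wild type. In S. paradoxus delta sfp1 and wild type were sampled in log phase and at both lag times. C. glabrata and N. castellii each have 2 SFP1 paralogs, and each paralog was deleted on its own: delta CAGL0M09955g, delta CAGL0D00682g and wild type in C. glabrata, and delta Scas551.1, delta Scas719.24 and wild type in N. castellii. K. lactis and S. pombe each had delta sfp1 and wild type. Nothing in the labels tells whether libraries A, B and C of a group came from separate cultures, and the p-values therefore measure only how these libraries vary, which may be technical.

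Large-subunit assembly begins in the nucleolus, where many factors fold and trim the precursor rRNA and dock ribosomal proteins. The particle then passes through the nucleoplasm, is exported by adapters such as Nmd3, and sheds its last factors in the cytoplasm. In S. cerevisiae most of these genes belong to the ribosome biogenesis (RiBi) regulon, which is transcribed strongly when nutrients are plentiful and is distinct from the ribosomal protein genes, and Sfp1 is known as an activator of both.

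Many RiBi promoters of S. cerevisiae are known to carry a pair of short elements, PAC (GCGATGAG, with the core GATGAG) and RRPE (AAAAATTT). To show what these promoters look like, 130 bases of sequence, from 200 to 71 bases before the start codon, are printed for the 3 members with the largest fall and the 2 with the largest rise in the S. cerevisiae deletion. The sequences are from RefSeq's S. cerevisiae R64 assembly, each on its gene's own strand from 5′ to 3′, and capitals mark matches to PAC and to RRPE on either strand, which may overlap.
NOG2 (chrXIV:723183-723312, - strand): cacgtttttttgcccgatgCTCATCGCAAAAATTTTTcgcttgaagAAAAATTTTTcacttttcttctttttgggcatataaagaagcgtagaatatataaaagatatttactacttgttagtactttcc
DBP3 (chrVII:361930-362059, - strand): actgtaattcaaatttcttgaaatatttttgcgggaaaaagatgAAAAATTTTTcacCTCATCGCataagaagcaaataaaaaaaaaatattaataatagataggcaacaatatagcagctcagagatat
SDO1 (chrXII:184997-185126, - strand): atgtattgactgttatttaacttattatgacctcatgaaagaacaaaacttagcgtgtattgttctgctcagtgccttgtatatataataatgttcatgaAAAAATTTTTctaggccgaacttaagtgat
MAK5 (chrII:528117-528246, + strand): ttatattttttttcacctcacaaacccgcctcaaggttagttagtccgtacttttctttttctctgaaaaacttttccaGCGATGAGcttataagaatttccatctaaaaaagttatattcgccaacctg
REI1 (chrII:739641-739770, + strand): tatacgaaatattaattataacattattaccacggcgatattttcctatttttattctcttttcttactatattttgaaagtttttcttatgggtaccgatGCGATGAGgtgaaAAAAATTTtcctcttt
NOG2, DBP3 and REI1 held both elements in the stretch shown. SDO1 had RRPE matches and no PAC core anywhere in the 250 bases before its start codon, and MAK5 had PAC and no RRPE there. In windows of 250 bases before the start codon, the PAC core was found before 53 of the 60 members (88.3%), against 17.0% of 6001 protein-coding genes. RRPE was found before 49 members (81.7%), against 13.4% of all genes. The full 8-base PAC stood before 36 members (60.0%), against 3.83% of all genes, and the PAC core and RRPE stood together before 43 members (71.7%), against 4.98%. Genes of 40S subunit assembly had shares close to these (88.9% for the PAC core and 82.5% for RRPE, 63 genes), whereas the 82 large-subunit ribosomal protein genes had 8.54% and 12.2%. A match is a description of the letters and not a binding site, and a window can reach into a neighbouring gene.

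**Figure D1:**
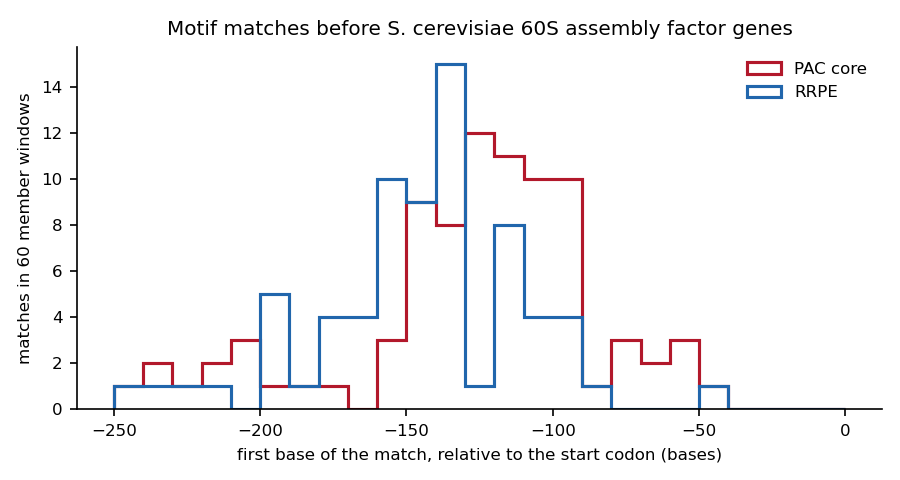
Number of matches in the 60 member windows (vertical axis) against the distance of the match's leading base from the start codon in bases (horizontal axis), for the PAC core and for RRPE. The 85 PAC core matches have their median at -121 and the 71 RRPE matches at -143, and the quartiles run from -143 to -101 and from -161.5 to -122.5.

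The total of estimated counts per library lay between 1360916 and 3447874 in log phase of the 5 budding yeasts, between 712972 and 2252092 in S. pombe, and between 418292 and 640282 in S. paradoxus lag phase, except for delta sfp1 at 30 min, library A, with 34081. SFP1 had 0 counts over the deletion libraries of S. cerevisiae, K. lactis and both S. paradoxus lag times, 2 in S. paradoxus log phase, and each deleted paralog had 0 or 5 counts in its own strain. The S. pombe libraries labelled as deletion still held 226 counts of sfp1, against 403 in wild type, and are called the libraries labelled delta sfp1 throughout. Mating-type genes differed between groups. In S. paradoxus log phase, alpha-type genes summed to 3379 to 3858 CPM (counts scaled to a common library total) in delta sfp1, against 30.9 to 35.9 CPM in wild type, and a-type genes to 549 to 598 CPM in delta sfp1, against 1853 to 1963 CPM in wild type. In both N. castellii deletions alpha-type genes summed to 22.9 to 32.8 CPM, with 1 of 5 at 0, against 800.4 to 1001 CPM in wild type. In those comparisons mating type and the SFP1 deletion cannot be told apart. In bulk RNA, fewer cells expressing a gene and less RNA of it per cell cannot be told apart either, and every level here is relative to the rest of its library.

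In the S. cerevisiae deletion the 60S assembly factors were lower nearly across the list. Of the 60 members, 48 were lower in delta sfp1 than in wild type and 3 were higher at an adjusted p below 0.05 (edgeR's quasi-likelihood test, Benjamini-Hochberg over 5826 genes), where 26% of all genes tested were called lower and 26% higher. The median log2 fold change of the members was -0.64. Over all genes tested the median was 0.03 here and lay between -0.05 and 0.13 in every within-species comparison. All 3 delta sfp1 libraries lay below all 3 wild-type libraries for 49 members and above them for 3, and the groups overlapped for 8. The share of all genes tested that separated in this way was not computed, so these counts have no background to be judged by. The members together summed to 5583 ± 156 CPM in delta sfp1 and 8566 ± 190 CPM in wild type (SD, n = 3 each). The 63 genes of 40S assembly had 50 lower and 2 higher calls with a median of -0.58, 25 further 60S assembly genes had 17 lower and 2 higher with a median of -0.72, and the 82 large-subunit ribosomal protein genes had 74 lower and 4 higher with a median of -0.82. Beside these changes, a-type mating genes summed to 949 to 984 CPM in delta sfp1 and 1657 to 1694 CPM in wild type (5 of 7 called lower), and their part in the members' values was not tested.

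**Figure D2:**
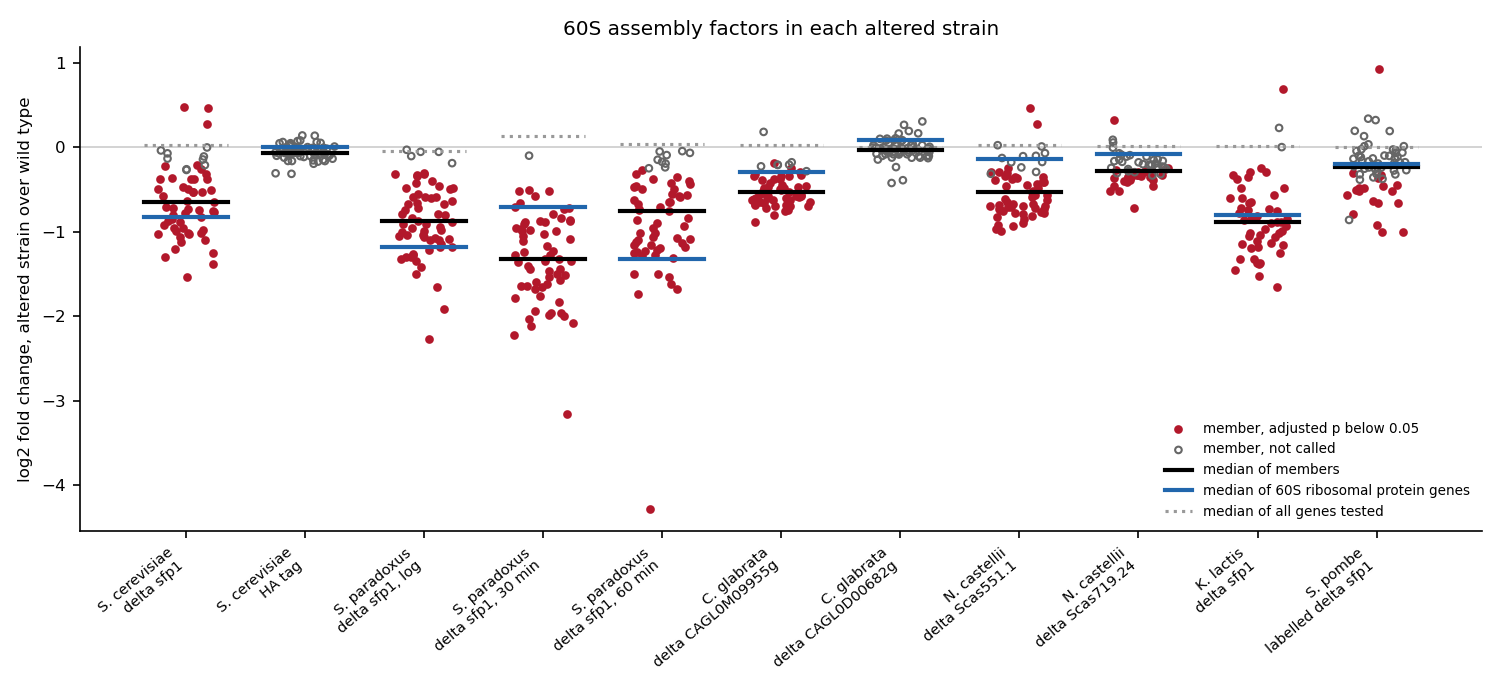
Log2 fold change of every member row, altered strain over wild type (vertical axis), in the 11 comparisons with wild type (horizontal axis); filled points passed an adjusted p below 0.05 and open points did not, and bars mark the medians of the members, of the large-subunit ribosomal protein genes and of all genes tested. Member medians lie between -0.24 and -1.32 in 9 comparisons, and at -0.06 for the HA-tagged strain and -0.03 for delta CAGL0D00682g.

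The GTPases that act on nuclear pre-60S particles were all lower in delta sfp1. NOG2 (YNR053C), the GTPase that holds the particle until it is ready for export, had 49.3, 61.4 and 60.3 CPM in delta sfp1, against 173, 154 and 168 CPM in wild type. It was the member with the largest fall, 2.88-fold lower (log2 -1.53 ± 0.09, edgeR adjusted p = 3.7e-10), and the groups were far apart. A small nucleolar RNA gene, SNR191, lies in the NOG2 intron on the same strand and shares 274 bases with the gene's span, so some reads could belong to either. NOG1 (YPL093W), a nucleolar GTPase that joins earlier, had 134, 143 and 136 CPM in delta sfp1, against 252, 252 and 261 CPM in wild type (log2 -0.89 ± 0.06, edgeR adjusted p = 1.8e-09).

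Among the factors that bind the internal transcribed spacer 2 and the Nop7 complex, 5 of 6 were lower. NOP7 (YGR103W), the scaffold of the complex, had 141, 124 and 137 CPM in delta sfp1, against 289.5, 314 and 318 CPM in wild type (log2 -1.20 ± 0.07, edgeR adjusted p = 5.6e-10). Its partner ERB1 (YMR049C) had 135, 121 and 125 CPM in delta sfp1, against 252, 257 and 228 CPM in wild type (log2 -0.95 ± 0.07). The third subunit of the same complex, YTM1 (YOR272W), did not pass the test: it had 122, 104 and 116 CPM in delta sfp1 and 108, 120.0 and 143 CPM in wild type, the groups overlapped, and the log2 fold change was -0.13 ± 0.09 (edgeR adjusted p = 0.24). CIC1, which sits on the spacer as a foot of the particle, had 42.4, 43.5 and 47.2 CPM in delta sfp1, against 117, 99.9 and 103 CPM in wild type (log2 -1.25 ± 0.11, edgeR adjusted p = 6.8e-08).

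The 10 DEAD-box RNA helicases, which unwind rRNA, had calls in both directions: 7 were lower and 2 higher. DBP3 (YGL078C) had 78.1, 70.6 and 71.3 CPM in delta sfp1, against 179, 215 and 175 CPM in wild type, the largest fall of a helicase (2.60-fold lower, log2 -1.38 ± 0.09, edgeR adjusted p = 1.2e-09). HAS1, a nucleolar helicase, had a log2 fold change of -0.99 ± 0.07 (edgeR adjusted p = 5.8e-09). Against that direction, MAK5 (YBR142W) had 173, 160.4 and 171 CPM in delta sfp1 and 118, 124 and 122 CPM in wild type (1.38-fold higher, log2 0.46 ± 0.08, edgeR adjusted p = 8.4e-05). DBP6 (YNR038W), a helicase that acts in the earliest particles, had 96.9, 106 and 108 CPM in delta sfp1 and 82.1, 84.6 and 89.0 CPM in wild type (log2 0.28 ± 0.09, edgeR adjusted p = 0.015). For MAK5 and DBP6 every delta sfp1 library lay above every wild-type library.

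The 3 Noc proteins, early scaffold factors, and both rRNA methyltransferases were lower, as were both factors that deliver the 5S particle. NOP2 (YNL061W), which methylates the large rRNA, had 108, 107 and 101 CPM in delta sfp1, against 199, 194 and 202 CPM in wild type (log2 -0.91 ± 0.06, edgeR adjusted p = 3.3e-09). RPF2, which brings in the 5S particle, had a log2 fold change of -0.77 ± 0.10 (edgeR adjusted p = 7.4e-06). RIX1 (YHR197W), of the nucleoplasmic complex that recruits the remodelling ATPase, had 39.8, 40.7 and 48.4 CPM in delta sfp1, against 93.7, 88.0 and 83.1 CPM in wild type (log2 -1.02 ± 0.10, edgeR adjusted p = 1.4e-07). That ATPase, REA1 (YLR106C, also named MDN1), a giant AAA-type motor that strips Ytm1 and other factors from the particle, was lower by less: it had 515, 482 and 489.9 CPM in delta sfp1, against 659.6, 655 and 607 CPM in wild type (log2 -0.37 ± 0.06, edgeR adjusted p = 8.5e-05).

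Of the 10 export and cytoplasmic factors 8 were lower and 1 higher. SDO1 (YLR022C), the yeast ortholog of the human SBDS gene, which helps release Tif6 in the cytoplasm, had 20.7, 20.01 and 17.7 CPM in delta sfp1, against 50.3, 47.4 and 46.3 CPM in wild type (2.45-fold lower, log2 -1.29 ± 0.14, edgeR adjusted p = 6.0e-07). TIF6, which keeps the subunits apart until maturation ends, had a log2 fold change of -0.80 ± 0.08, and NMD3, the export adapter, of -0.73 ± 0.07. RLP24, the placeholder for a ribosomal protein, was lower by more (log2 -1.12 ± 0.09) and LSG1, the GTPase that releases Nmd3, by less (log2 -0.50 ± 0.07); the edgeR adjusted p of these 4 genes lay between 2.7e-08 and 2.7e-05. The member that was higher was REI1 (YBR267W), a cytoplasmic factor that helps recycle the export factor Arx1, with 78.1, 75.8 and 84.7 CPM in delta sfp1 and 54.2, 59.7 and 56.5 CPM in wild type (log2 0.48 ± 0.10, edgeR adjusted p = 6.1e-04). REI1 shares 453 bases with SLM6 on the opposite strand, and whether the counting used strand was not stated, so their reads cannot be told apart.

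Per kilobase of coding sequence, DBP2, a helicase with roles beyond the ribosome, had the highest level of the members, with 140.6 ± 3.31 CPM per kb in delta sfp1 and 252 ± 8.65 CPM per kb in wild type. TIF6 followed, with 134 ± 10.8 CPM per kb in delta sfp1 and 232 ± 6.06 CPM per kb in wild type. At the low end, IPI1 had 25.5 ± 1.61 CPM per kb in delta sfp1 and 26.6 ± 2.77 CPM per kb in wild type, and DBP7 had 24.0 ± 3.66 CPM per kb in delta sfp1 and 26.0 ± 2.36 CPM per kb in wild type (SD, n = 3 each). DBP7 and IPI1 did not differ beyond their spread, and neither passed the test against wild type. RIX1 was the lowest member in delta sfp1, with 18.8 ± 2.06 CPM per kb, against 38.5 ± 2.31 CPM per kb in wild type. NOG2 had 39.0 ± 4.61 CPM per kb in delta sfp1 and 113 ± 6.65 CPM per kb in wild type. These extremes were chosen after their values were seen.

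Members with RRPE before the start codon had a median log2 fold change of -0.73 in the deletion (49 genes, 43 called lower), and the 11 without it had -0.26 (5 called lower). For the full 8-base PAC the medians were -0.71 for the 36 genes with it and -0.58 for the 24 without, and for the PAC core -0.64 for the 53 genes with it and -0.88 for the 7 without. MAK5 is among the genes without RRPE, and NOG2 has RRPE matches in both of its capital stretches above. These are descriptions of a list whose values were known, with no test.

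The members of the HA-tagged strain could not be told apart from wild type by the test. None of the 60 members was called in either direction by edgeR, where 0% of all genes tested were called lower and 0% higher. DESeq2 called 0 members as well, and 2 members had an unadjusted edgeR p below 0.05. The share of all genes below that unadjusted p is not given, so this count has no background to be judged by. The median log2 fold change was -0.06 and the values ran from -0.31 to 0.14. Summed levels were 8329 ± 339 CPM in the HA-tagged strain and 8566 ± 190 CPM in wild type (SD, n = 3 each), and SFP1 itself had 509 counts over the 3 HA-tagged libraries and 561 over those of wild type.

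In S. paradoxus, a close relative of S. cerevisiae, the deletion went with lower levels of nearly all the members in each growth phase. In log phase 58 of 63 rows were lower in delta sfp1 than in wild type and 0 higher, where 32.6% of all genes tested were called lower and 24.8% higher, and the median log2 fold change was -0.87. At 30 min of lag 62 rows were lower and 0 higher (24.6% and 28.3% of all genes tested), with a median of -1.32. At 60 min 54 rows were lower and 0 higher (25% and 25.7% of all genes tested), with a median of -0.75. With scaling by library size alone the log-phase counts were 36 lower and 5 higher, and the median stayed negative at -0.37. The large-subunit ribosomal proteins, 55 rows, had 54 lower and 0 higher in log phase (median -1.18), 48 lower and 1 higher at 30 min (median -0.71) and 55 lower and 0 higher at 60 min (median -1.32). At 30 min the member median was thus the more negative of the pair, and in log phase and at 60 min the ribosomal protein median was; the contrast between these lists was not tested.

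SDO1 was the member that fell most in each phase. In log phase it had 14.01, 18.0 and 18.4 CPM in delta sfp1, against 89.1, 71.4 and 82.2 CPM in wild type (log2 -2.27 ± 0.15, edgeR adjusted p = 1.2e-14). At 30 min of lag it had 0, 9.51 and 13.4 CPM in delta sfp1, against 94.0, 109.8 and 97.7 CPM in wild type, and at 60 min 2.09, 1.504 and 5.62 CPM in delta sfp1, against 62.7, 69.9 and 62.0 CPM in wild type. The lag values rest on 11 counts over the 3 delta sfp1 libraries at 30 min and 6 counts at 60 min, against 146 and 110 counts in wild type, and the fitted log2 fold changes were -3.16 ± 0.32 and -4.28 ± 0.36 (edgeR adjusted p = 2.6e-10 and 5.3e-12). The groups did not overlap at any time.

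NOG2 had 67.9, 64.01 and 71.2 CPM in delta sfp1 in log phase, against 271, 231 and 267 CPM in wild type (log2 -1.91 ± 0.10, edgeR adjusted p = 6.2e-17). At 30 min it had 80.9, 188 and 223 CPM in delta sfp1, against 639, 586 and 579.7 CPM in wild type (log2 -1.59 ± 0.13, edgeR adjusted p = 1.1e-12), and library A, the shallow one, was the lowest. At 60 min it had 138, 149 and 139 CPM in delta sfp1, against 382, 413 and 414 CPM in wild type (log2 -1.501 ± 0.12, edgeR adjusted p = 6.9e-13). Its fellow GTPase NOG1 had log2 fold changes of -1.501 ± 0.09 in log phase, -1.501 ± 0.10 at 30 min and -1.21 ± 0.09 at 60 min, all of them past the threshold.

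Other leading falls differed by phase. In log phase they included MAK16, a nucleolar factor of the early particle, with 72.5, 87.6 and 107 CPM in delta sfp1, against 271, 198 and 246 CPM in wild type (log2 -1.42 ± 0.12, edgeR adjusted p = 3.4e-12). They also included Spar_12.80, 1 of the rows of the orthogroup that holds RLP24, RPL24A and RPL24B (log2 -1.65 ± 0.13). At 30 min ERB1 had 216, 238 and 258 CPM in delta sfp1, against 1102, 1023 and 1085 CPM in wild type (4.34-fold lower, log2 -2.12 ± 0.13, edgeR adjusted p = 1.0e-15). The Noc protein NOC3 had 135, 133 and 129.9 CPM in delta sfp1, against 518, 575 and 513 CPM in wild type (log2 -2.03 ± 0.14). NSA2, which acts in nucleolar particles, had log2 fold changes of -2.07 ± 0.18 at 30 min and -1.67 ± 0.17 at 60 min, and the CIC1/UTP30 row had -2.22 ± 0.14 and -1.74 ± 0.12. At 60 min 2 more rows of the RPL24 orthogroup led, Spar_7.482 and Spar_7.268 (log2 -1.61 ± 0.10 and -1.53 ± 0.09), which may be ribosomal protein genes and not assembly factors.

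A few members stood apart from the falls. REA1 had 559.6, 573 and 625 CPM in delta sfp1 in log phase and 648, 503 and 743 CPM in wild type, with overlapping groups (log2 -0.10 ± 0.10, edgeR adjusted p = 0.40). At 30 min the same gene was lower (log2 -0.51 ± 0.11, edgeR adjusted p = 3.0e-04), and at 60 min it did not pass the test (log2 -0.19 ± 0.11, edgeR adjusted p = 0.15). NOP2 was lower in log phase and at 30 min (log2 -0.79 ± 0.09 and -0.88 ± 0.11), and at 60 min it had 370.1, 378 and 412 CPM in delta sfp1, against 459.9, 434 and 476 CPM in wild type, with an edgeR adjusted p of 0.051 (log2 -0.24 ± 0.10). YTM1 had log2 fold changes of -0.49 ± 0.11 in log phase, -0.87 ± 0.13 at 30 min and -0.17 ± 0.12 at 60 min, and the last of these did not pass (edgeR adjusted p = 0.25). With library size alone the log-phase value of YTM1 was 0.0034, of the other sign.

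Genes of other steps can be set beside these. RPF2 had log2 fold changes of -1.28 ± 0.10 in log phase, -1.65 ± 0.12 at 30 min and -1.31 ± 0.12 at 60 min, and HAS1 -1.18 ± 0.10, -1.76 ± 0.11 and -1.08 ± 0.11. RIX1 had 53.9, 171 and 139 CPM in delta sfp1 at 30 min, against 610.0, 598 and 561 CPM in wild type, and log2 fold changes of -1.09 ± 0.11, -1.98 ± 0.14 and -1.06 ± 0.12 in log phase, at 30 and at 60 min. NMD3 and LSG1, of export and cytoplasmic release, had -0.88 ± 0.10 and -0.78 ± 0.10 in log phase, -1.05 ± 0.12 and -0.99 ± 0.12 at 30 min, and -0.57 ± 0.11 and -0.31 ± 0.11 at 60 min (log2).

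Alpha-type mating genes were also high in S. paradoxus delta sfp1 during lag. They summed to 3126 to 3885 CPM in delta sfp1 at 30 min, against 960 to 1135 CPM in wild type, and to 3350 to 4084 CPM in delta sfp1 at 60 min, against 1030 to 1079 CPM in wild type. A-type genes summed to 1024 to 1061 CPM in delta sfp1 at 30 min, against 509 to 549 CPM in wild type. All 4 alpha-type genes had counts in every lag library, and their part in the members' values was not tested. In wild type these sums also differed between log phase and lag, so mating type and phase cannot be told apart there.

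After glucose repletion the order of 30 and 60 min in delta sfp1 depends on the scaling. The median log2 fold change of the rows, 60 over 30 min, was negative with TMM scaling (given below) and 0.10 with library size alone. With TMM-scaled library sizes the summed CPM was higher at 30 min. In wild type the members had their highest summed CPM at 30 min. Mating-type genes of wild type differed between log phase and lag, so mating type and phase cannot be told apart in the rank against log phase. The lag libraries were also shallower than those of log phase. The 54 S. paradoxus members with an orthogroup of their own summed to 6254 ± 158 CPM in delta sfp1 and 11161 ± 1010 CPM in wild type in log phase (SD, n = 3 each). At 30 min the sums were 13615 ± 2086 CPM in delta sfp1 and 34643 ± 649 CPM in wild type, and at 60 min 10682 ± 363 CPM in delta sfp1 and 18368 ± 249.99 CPM in wild type. The delta sfp1 sums lay below the wild-type sums at the same time in every library.

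**Figure D3:**
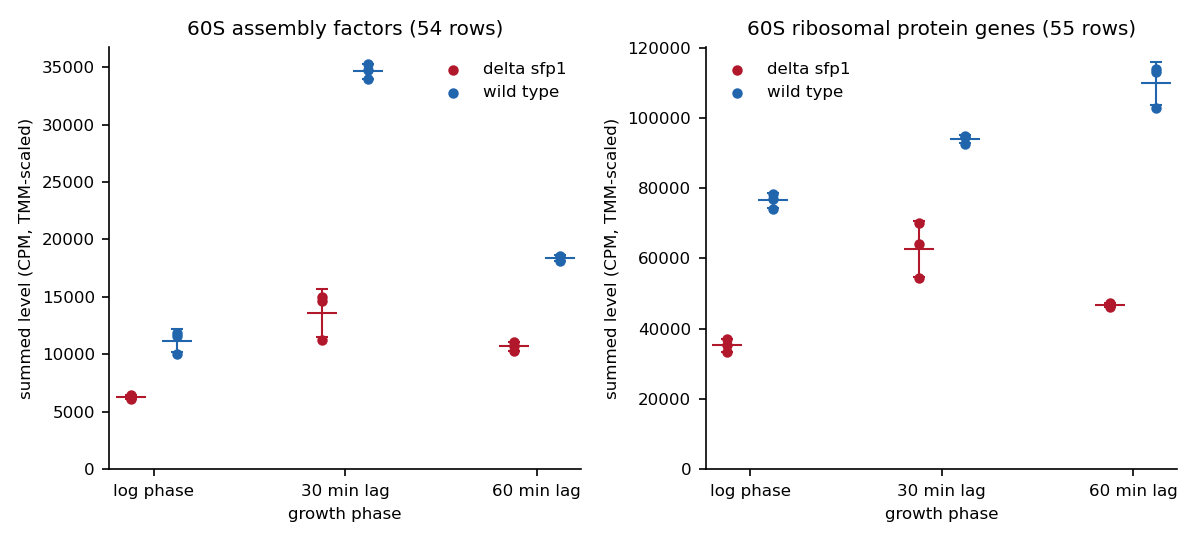
Summed level in TMM-scaled CPM (vertical axes, from 0) in S. paradoxus log phase and at 30 and 60 min of lag (horizontal axes), for 54 member rows on the left and 55 large-subunit ribosomal protein rows on the right; points are libraries, horizontal bars means and whiskers SD (n = 3). The member sums of wild type stand at 34643 CPM at 30 min and 18368 CPM at 60 min, while the ribosomal protein sums of wild type are higher at 60 min than at 30 min.

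Between 60 and 30 min of lag, 59 of 63 rows were lower and 2 higher at 60 min in wild type, where 19.8% of all genes tested were called lower and 16.7% higher (median log2 fold change -0.82). DBP2 had 591, 597 and 694 CPM at 60 min, against 2156, 2152 and 2429 CPM at 30 min (3.59-fold lower, log2 -1.84 ± 0.13, edgeR adjusted p = 4.0e-13). SQT1, the chaperone of a late-joining ribosomal protein, SDA1, needed for particle export, and SPB1, a methyltransferase, followed with log2 values of -1.26 ± 0.11, -1.19 ± 0.10 and -1.12 ± 0.10. Against the trend, a row of the REH1/REI1 orthogroup, Spar_12.524, had 157, 176 and 148 CPM at 60 min and 118, 123 and 99.7 CPM at 30 min (log2 0.50 ± 0.15, edgeR adjusted p = 0.0080). The RPL24 orthogroup's row Spar_7.268, which may be a ribosomal protein gene, was higher too (log2 0.37 ± 0.09). The 55 ribosomal protein rows had 5 lower and 30 higher calls in the same comparison, with a median of 0.27.

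In delta sfp1 the same comparison of times gave 22 rows lower and 0 higher at 60 min, where 14.7% of all genes tested were called lower and 7.97% higher (median -0.32). DBP2 had 286, 298 and 281 CPM at 60 min, against 728, 823 and 739 CPM at 30 min (log2 -1.42 ± 0.15, edgeR adjusted p = 5.1e-09), and DBP3 had 332, 298 and 318 CPM at 60 min, against 619.9, 763 and 659 CPM at 30 min (log2 -1.15 ± 0.11, edgeR adjusted p = 2.5e-10). With library size alone 3 rows were lower and 5 higher. The count was 14 without the filter on low counts, 14 without delta sfp1 30 min library B and 29 without library A of that group. The ribosomal protein rows had 46 lower and 0 higher calls in delta sfp1 (median -0.49).

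The deletion effect itself was tested for a difference between phases. Mating-type gene levels of wild type differed between log phase and lag, so mating type and phase cannot be told apart in the contrasts with log phase. At 60 min it was less negative than at 30 min for 29 of 63 rows and more negative for 2, where 7.5% of all genes tested were called less negative and 7.82% more negative (median difference 0.48). The count of 29 was 50 with library size alone and 48 without the filter on low counts. For the 55 ribosomal protein rows the difference ran the other way, with 48 rows more negative at 60 min and 0 less (median -0.76). Relative to log phase, the effect at 30 min was more negative for 34 member rows and less negative for 2, where 11.7% and 20.1% of all genes tested were called (median -0.46), whereas 2 ribosomal protein rows were more negative and 40 less (median 0.54). With library size alone 54 member rows were more negative at 30 min. Between 60 min and log phase 6 member rows were more negative and 5 less negative, where 9.11% and 16.1% of all genes tested were called (median 0.02). That last balance depends on the settings: the median was between -0.10 and -0.20 with RLE scaling, library size alone, DESeq2 or no filter, with 10 to 12 rows more negative, and without delta sfp1 60 min library A 3 rows were more negative.

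In the C. glabrata deletion of CAGL0M09955g most of the members were lower, and none was called higher. In delta CAGL0M09955g 57 of 64 rows were lower than in wild type and 0 higher, where 18.6% of all genes tested were called lower and 15% higher, with a median log2 fold change of -0.53. The members with an orthogroup of their own summed to 5668 ± 65.3 CPM in delta CAGL0M09955g and 8238 ± 159 CPM in wild type (SD, n = 3 each). LOC1, a nucleolar factor that also binds a localised mRNA, had 22.0, 19.4 and 18.0 CPM in delta CAGL0M09955g, against 31.3, 34.9 and 43.4 CPM in wild type, the largest fall (log2 -0.89 ± 0.15, edgeR adjusted p = 2.3e-06). TIF6 had 110.4, 107 and 118 CPM in delta CAGL0M09955g, against 174, 192 and 217 CPM in wild type (log2 -0.80 ± 0.08, edgeR adjusted p = 1.7e-13). NOG2 had 159, 188 and 179 CPM in delta CAGL0M09955g, against 297, 271 and 284 CPM in wild type (log2 -0.70 ± 0.07, edgeR adjusted p = 5.4e-13). For each of these 3 genes the groups did not overlap.

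DBP9, MAK21 and RIX1, a helicase, a Noc protein and the Rix1 subunit, had log2 fold changes of -0.75 ± 0.09, -0.75 ± 0.06 and -0.72 ± 0.10 in delta CAGL0M09955g. NOG1 and ERB1 had -0.69 ± 0.07 and -0.69 ± 0.07, and REA1 -0.63 ± 0.06. SDO1 had 27.5, 24.6 and 27.8 CPM in delta CAGL0M09955g, against 42.2, 33.6 and 37.6 CPM in wild type (log2 -0.50 ± 0.14, edgeR adjusted p = 0.0030). The smallest called fall of the panel was that of NMD3 (log2 -0.18 ± 0.07, edgeR adjusted p = 0.045). The 48 large-subunit ribosomal protein rows had 44 lower and 0 higher, with a median of -0.29.

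In the deletion of the other C. glabrata paralog no member was told apart from wild type by the test. In delta CAGL0D00682g 0 of 64 rows were called in either direction by edgeR, where 0.189% of all genes tested were called lower and 0.378% higher. DESeq2 called 0 rows as well, and 6 rows had an unadjusted edgeR p below 0.05. The share of all genes below that unadjusted p is not given, so the count of 6 has no background to be judged by. The median log2 fold change was -0.03 and the range -0.42 to 0.31. NOG2 had 292, 284 and 264 CPM in delta CAGL0D00682g and 297, 271 and 284 CPM in wild type (log2 -0.02 ± 0.07). Between the 2 deletions 59 rows were lower in delta CAGL0M09955g than in delta CAGL0D00682g and 0 higher, where 17.2% of all genes tested were called lower and 12.3% higher (median -0.52). DBP9 led that comparison, with 58.3, 61.9 and 58.9 CPM in delta CAGL0M09955g, against 101, 113 and 105 CPM in delta CAGL0D00682g (log2 -0.84 ± 0.09, edgeR adjusted p = 1.6e-11). DBP7, another helicase, had a log2 fold change of -0.70 ± 0.10 there.

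In N. castellii members were lower in both paralog deletions. In delta Scas551.1 50 of 63 rows were lower than in wild type and 2 higher, where 20.4% of all genes tested were called lower and 21.4% higher (median log2 fold change -0.53). In delta Scas719.24 31 rows were lower than in wild type and 1 higher, where 11.3% and 14.8% of all genes tested were called (median -0.28). That count for delta Scas719.24 was 16 without delta Scas719.24 library B and 18 without wild-type library C, and 20 with DESeq2, and 51 with library size alone. The 63 ribosomal protein rows had 26 lower and 2 higher in delta Scas551.1 (median -0.14) and 3 lower and 2 higher in delta Scas719.24 (median -0.08). Both deletions differ from wild type in mating-type genes as given above: a-type genes summed to 349 to 364 CPM in delta Scas551.1, 312 to 347 CPM in delta Scas719.24 and 207 to 215 CPM in wild type.

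ERB1 had 85.6, 77.6 and 97.8 CPM in delta Scas551.1 and 151, 127 and 158 CPM in delta Scas719.24, against 163, 173 and 179 CPM in wild type. It fell most in delta Scas551.1 (log2 -0.98 ± 0.10, edgeR adjusted p = 5.5e-08) and did not pass in delta Scas719.24 (log2 -0.24 ± 0.09, edgeR adjusted p = 0.057). The early nucleolar factors MAK16 and RRP14 had log2 fold changes of -0.97 ± 0.12 and -0.92 ± 0.11 in delta Scas551.1. SPB1 and NOC2 had -0.93 ± 0.09 and -0.89 ± 0.08 on the same log2 scale. NOG2 had 94.9, 91.6 and 101 CPM in delta Scas551.1 and 123, 113 and 120.0 CPM in delta Scas719.24, against 155, 155 and 165 CPM in wild type (log2 -0.72 ± 0.09 and -0.42 ± 0.08, edgeR adjusted p = 4.0e-07 and 3.4e-04). SDO1 had 28.4, 29.5 and 35.4 CPM in delta Scas551.1 and 32.1, 36.6 and 28.0 CPM in delta Scas719.24, against 29.5, 39.7 and 32.4 CPM in wild type, and neither difference passed (log2 -0.13 ± 0.16 and -0.07 ± 0.14).

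REA1 had 216, 191 and 174 CPM in delta Scas551.1, against 295, 313 and 267 CPM in wild type (log2 -0.59 ± 0.09, edgeR adjusted p = 1.7e-05), and HAS1, NOG1 and NOP7 had log2 fold changes of -0.83 ± 0.10, -0.77 ± 0.09 and -0.74 ± 0.09. TIF6, LSG1 and NMD3 had -0.69 ± 0.11, -0.44 ± 0.10 and -0.38 ± 0.09 on the same scale, all past the threshold.

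The members that were higher in N. castellii were few. IPI1, a subunit of the Rix1 complex, had 35.7, 35.6 and 46.7 CPM in delta Scas551.1, against 29.5, 26.8 and 28.8 CPM in wild type (log2 0.46 ± 0.14, edgeR adjusted p = 0.013). ALB1, the partner of the export factor Arx1, had 89.5, 95.6 and 106 CPM in delta Scas551.1, against 84.6, 75.9 and 79.2 CPM in wild type (log2 0.27 ± 0.10, edgeR adjusted p = 0.025). In delta Scas719.24 the row NCAS0J01430 of the REH1/REI1 orthogroup had 76.2, 67.0 and 77.0 CPM, against 63.0, 59.1 and 53.3 CPM in wild type (log2 0.32 ± 0.10, edgeR adjusted p = 0.017). The largest falls in delta Scas719.24 were those of RSA3, a factor of early particles (log2 -0.72 ± 0.15), the helicase DRS1 (log2 -0.52 ± 0.08) and RPF2 (log2 -0.51 ± 0.10).

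Set against each other, the N. castellii deletions differed in 29 of 63 rows. In delta Scas551.1 27 rows were lower and 2 higher than in delta Scas719.24, where 12.9% of all genes tested were called lower and 11.3% higher (median -0.25). These strains have like levels of mating-type genes, with alpha-type sums of 24.2 to 30.5 CPM in delta Scas551.1 and 22.9 to 32.8 CPM in delta Scas719.24. ERB1 was lower (log2 -0.74 ± 0.10, edgeR adjusted p = 8.6e-06), as was RIA1, the cytoplasmic GTPase that acts with Sdo1, with 102, 100.2 and 97.8 CPM in delta Scas551.1, against 155, 154 and 174 CPM in delta Scas719.24 (log2 -0.68 ± 0.09, edgeR adjusted p = 3.8e-06). IPI1 and ALB1 were higher (log2 0.70 ± 0.15 and 0.38 ± 0.10). The direction of the list depends on the scaling: with library size alone 4 rows were lower and 11 higher, with a median of 0.08.

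In K. lactis nearly all the members were lower. In delta sfp1 48 of 51 rows were lower than in wild type and 1 higher, where 33.3% of all genes tested were called lower and 33.1% higher (median log2 fold change -0.88). The members with an orthogroup of their own summed to 4276 ± 128 CPM in delta sfp1 and 7618 ± 80.8 CPM in wild type (SD, n = 3 each), and all 34 ribosomal protein rows were lower. NOG2 had 60.8, 68.7 and 58.5 CPM in delta sfp1, against 203, 198 and 187 CPM in wild type (3.13-fold lower, log2 -1.65 ± 0.07, edgeR adjusted p = 7.1e-13). ARX1, the export factor that caps the peptide exit tunnel, had 110.1, 106 and 121 CPM in delta sfp1, against 335, 314 and 321 CPM in wild type (log2 -1.53 ± 0.08, edgeR adjusted p = 5.5e-12). NOP4, a nucleolar RNA-binding factor, and NOC3 followed with log2 fold changes of -1.45 ± 0.08 and -1.38 ± 0.08. DBP3 had 98.6, 92.8 and 102 CPM in delta sfp1, against 183, 198 and 209 CPM in wild type (log2 -1.01 ± 0.07). TIF6, NMD3 and LSG1, of the late steps, had log2 fold changes of -0.81 ± 0.09, -0.85 ± 0.07 and -0.38 ± 0.08, and REA1 had -0.29 ± 0.06. YTM1 fell here with its complex: its log2 fold change was -0.99 ± 0.08, that of NOP7 -1.14 ± 0.08 and that of ERB1 -0.96 ± 0.07.

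The exception in K. lactis was SDO1. It had 42.6, 43.3 and 43.5 CPM in delta sfp1, against 25.8, 26.7 and 27.3 CPM in wild type, and so was 1.62-fold higher (log2 0.69 ± 0.12, edgeR adjusted p = 5.7e-05). Every delta sfp1 library of K. lactis lay above every wild-type library, and the log2 value stayed between 0.67 and 0.72 when libraries were left out in turn. SQT1 and RSA3 had log2 values of 0.00 and 0.23 and did not pass the test; they were chosen after their values were seen, as the only other members not called. The alpha-type mating gene of K. lactis stood at 44.8 to 51.9 CPM in delta sfp1 and 16.5 to 19.97 CPM in wild type, and its part in these values was not tested.

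In S. pombe, a distant fission yeast, the libraries labelled delta sfp1 had 18 of 62 rows lower than wild type and 1 higher, where 6.82% of all genes tested were called lower and 3.19% higher (median log2 fold change -0.24). Without library A, or without library B, of the libraries labelled delta sfp1, 10 rows were lower. DBP9 had 48.4, 67.7 and 59.4 CPM in the libraries labelled delta sfp1, against 118, 118 and 116 CPM in wild type (log2 -1.003 ± 0.13, edgeR adjusted p = 0.0011). TIF6 had 207, 205 and 196 CPM in the libraries labelled delta sfp1, against 340.2, 448 and 367 CPM in wild type (log2 -0.92 ± 0.11, edgeR adjusted p = 7.3e-04). SDA1, DBP2 and NOG2 were lower as well (log2 -0.998 ± 0.18, -0.79 ± 0.08 and -0.64 ± 0.11). The RRP14 row SPAC8C9.10c.1, 1 of the RRP14 orthologs, was higher, with 89.8, 112 and 77.4 CPM in the libraries labelled delta sfp1, against 41.9, 62.1 and 47.9 CPM in wild type (log2 0.93 ± 0.17, edgeR adjusted p = 0.0090). NOG1, ERB1 and RIX1 did not pass (log2 -0.19 ± 0.09, -0.10 ± 0.09 and -0.04 ± 0.08). Since sfp1 reads remained in these libraries, their directions are those of the label and not of a checked deletion.

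To set species side by side, C. glabrata and N. castellii were each represented by the paralog deletion with more members called lower. The other paralog deletions and S. pombe were left out. That choice used the members' own calls, so it favoured the members' shares below, and their contrast with the orthogroups' shares is no test. The 5 deletions kept were S. cerevisiae, S. paradoxus log phase, C. glabrata delta CAGL0M09955g, N. castellii delta Scas551.1 and K. lactis. In them 45 members were measured in every species. Of these 28 (62.2%) were lower in all 5, against 190 (9.39%) of 2024 orthogroups measured in all 5. Lower calls in 4 or 5 of the deletions were made for 39 members (86.7%), against 14.3% of orthogroups. NOG2 was lower in all 5, with log2 fold changes of -1.53, -1.91, -0.70, -0.72 and -1.65 in the order of species just given. SDO1 had -1.29, -2.27, -0.50, -0.13 and 0.69 in the same order, so that it was the leading fall in S. paradoxus and the lone rise in K. lactis. At the other end RRP15, a nucleolar factor, was lower in 1 of the 5, K. lactis; it was chosen after its values were seen.

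MAK5 had log2 fold changes of 0.46, -0.05, -0.47, -0.77 and -0.36 in the same order of species, with a higher call in S. cerevisiae, none in S. paradoxus and lower calls in the other three; it was followed across species after its S. cerevisiae value was seen.

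By role, the GTPases of nuclear assembly, the Noc proteins and the rRNA methyltransferases were called lower without exception wherever they were measured in these 5 deletions. The median log2 fold change of the GTPases was -0.89 in S. cerevisiae, -1.501 in S. paradoxus, -0.69 in C. glabrata, -0.72 in N. castellii and -1.48 in K. lactis (3, 3, 3, 3 and 2 rows). The DEAD-box helicases, with calls in both directions in S. cerevisiae, had 8 of 9 rows lower in S. paradoxus, 9 of 10 in C. glabrata, 9 of 10 in N. castellii and 9 of 9 in K. lactis, and none higher there. The export and cytoplasmic factors had 12 of 13 rows lower in S. paradoxus, 10 of 12 in C. glabrata, 9 of 12 with 1 higher in N. castellii and 6 of 8 with 1 higher in K. lactis. Of the other nucleolar factors 13 of 17 were lower in both S. cerevisiae and N. castellii, 16 of 18 in S. paradoxus, 14 of 18 in C. glabrata and 12 of 13 in K. lactis. Over all genes tested 26% were called lower in S. cerevisiae, 32.6% in S. paradoxus, 18.6% in C. glabrata, 20.4% in N. castellii and 33.3% in K. lactis. Outside S. cerevisiae the export and cytoplasmic rows include those of shared orthogroups. Except in K. lactis these include rows of the RLP24 orthogroup, some of which may be ribosomal protein genes. The choice of paralog deletions favoured the role counts too. Differences between roles were not tested.

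**Figure D4:**
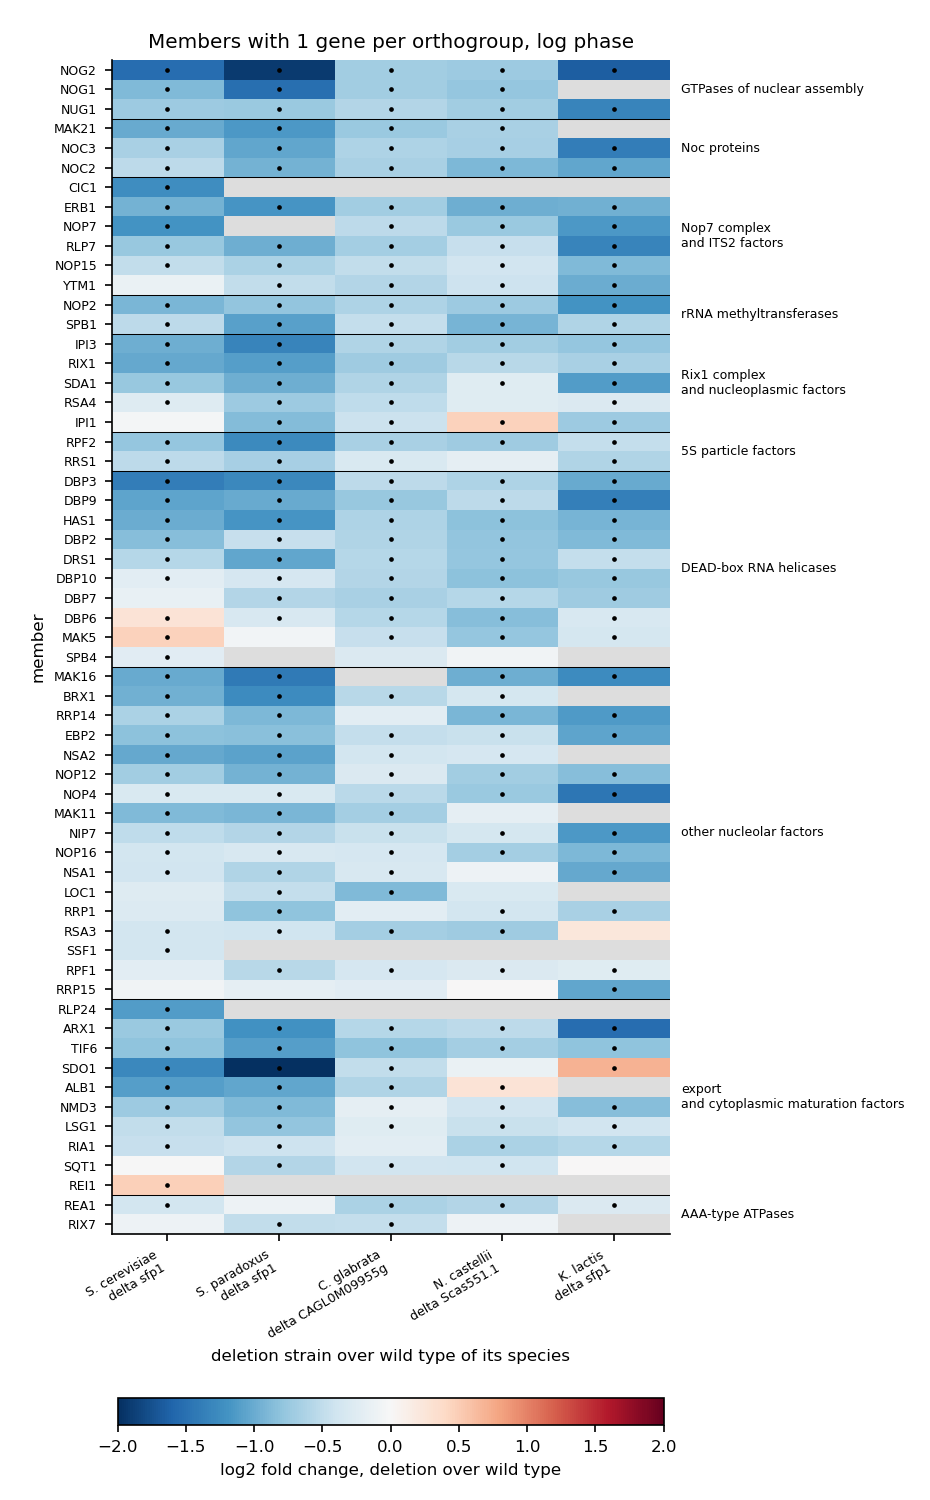
Log2 fold change, deletion over wild type in log phase (colour scale from -2 to 2), of the 60 members (vertical axis, grouped by role) in 5 species (horizontal axis); dots mark an adjusted p below 0.05 and grey cells have no row of a single name. Blue runs through nearly every line of the map, and the red cells with a dot are MAK5, DBP6 and REI1 in S. cerevisiae, IPI1 and ALB1 in N. castellii and SDO1 in K. lactis.

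Whether the effect on a member differed from that in S. cerevisiae was tested on orthogroups with 1 gene in both species. All of these tests share the S. cerevisiae libraries. In S. paradoxus log phase and both N. castellii deletions, mating type and the SFP1 deletion cannot be told apart. The same holds for the differences of these deletions from S. cerevisiae. The S. paradoxus effect was more negative for 13 and less negative for 2 of 54 members, where 14.5% and 15.1% of all orthogroups tested were called. In K. lactis 19 of 47 members were more negative and 5 less (27.3% and 25.6% of all). In C. glabrata 19 of 55 members were less negative and 9 more in delta CAGL0M09955g (20.7% and 15.4% of all), and 40 less negative and 1 more in delta CAGL0D00682g (19.7% and 14.4% of all). In N. castellii 14 of 56 members were less negative and 8 more in delta Scas551.1 (21.8% and 20% of all), and 27 less negative and 3 more in delta Scas719.24 (20.9% and 19.3% of all). In S. pombe 24 of 51 members were less negative and 4 more (19.8% and 18.1% of all). Without S. paradoxus wild-type log library A, 7 members were more negative in the S. paradoxus test.

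The authors' deposited tables also hold microarray log ratios between altered and wild-type strains at time points read as minutes from the column names, whose log base and number of arrays were not stated. The sign was turned, from the ratio of the deleted gene, so that a negative value is lower in the altered strain; no test was made. In the S. cerevisiae strain that the column names call BY, the median over the 60 members in the authors' deposited table was -0.05 at 15 min, -0.81 at 30 min, -0.38 at 60 min and -0.29 at 90 min. In the strain called RM it was -1.09 at 30 min, -0.84 at 60 min and -0.48 at 90 min. The large-subunit ribosomal proteins had medians between -0.03 and -0.19 in BY and between -0.14 and -0.33 in RM, in the authors' deposited table. SDO1 had -2.80 in BY and -3.27 in RM at 30 min in the authors' deposited table, and MAK5, higher in the log-phase RNA-seq deletion, had -0.96 in RM and -0.11 in BY at 30 min, -0.88 in RM and 0.08 in BY at 60 min, and 0.81 in BY at 15 min.

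In the authors' deposited table for C. glabrata delta CAGL0M09955g the member medians were -0.76, -0.62 and -0.44 at 30, 60 and 90 min, and for delta CAGL0D00682g they lay between -0.02 and -0.07. For N. castellii delta Scas551.1 they were -0.88, -0.59 and -0.37 in the authors' deposited table. Delta Scas719.24 had the most negative median of any microarray column in the authors' deposited tables, -1.62 at 30 min, then -0.78 at 60 min and -0.11 at 90 min, with ribosomal protein medians of -2.40, -1.41 and -0.70. For K. lactis, whose log-phase RNA-seq median was -0.88, the member medians in the authors' deposited table were -0.08, 0.01 and -0.03, and SDO1 had 0.85, 0.85 and 0.72. The K. lactis microarray medians are over 63 rows and the RNA-seq median over 51, which leave out the genes without a matching row. For S. pombe the deposited medians were -0.70, -0.51 and -0.45, with a log ratio of sfp1 itself of -7.62 at 30 min in the authors' deposited table, unlike the RNA-seq libraries described above.

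**Figure D5:**
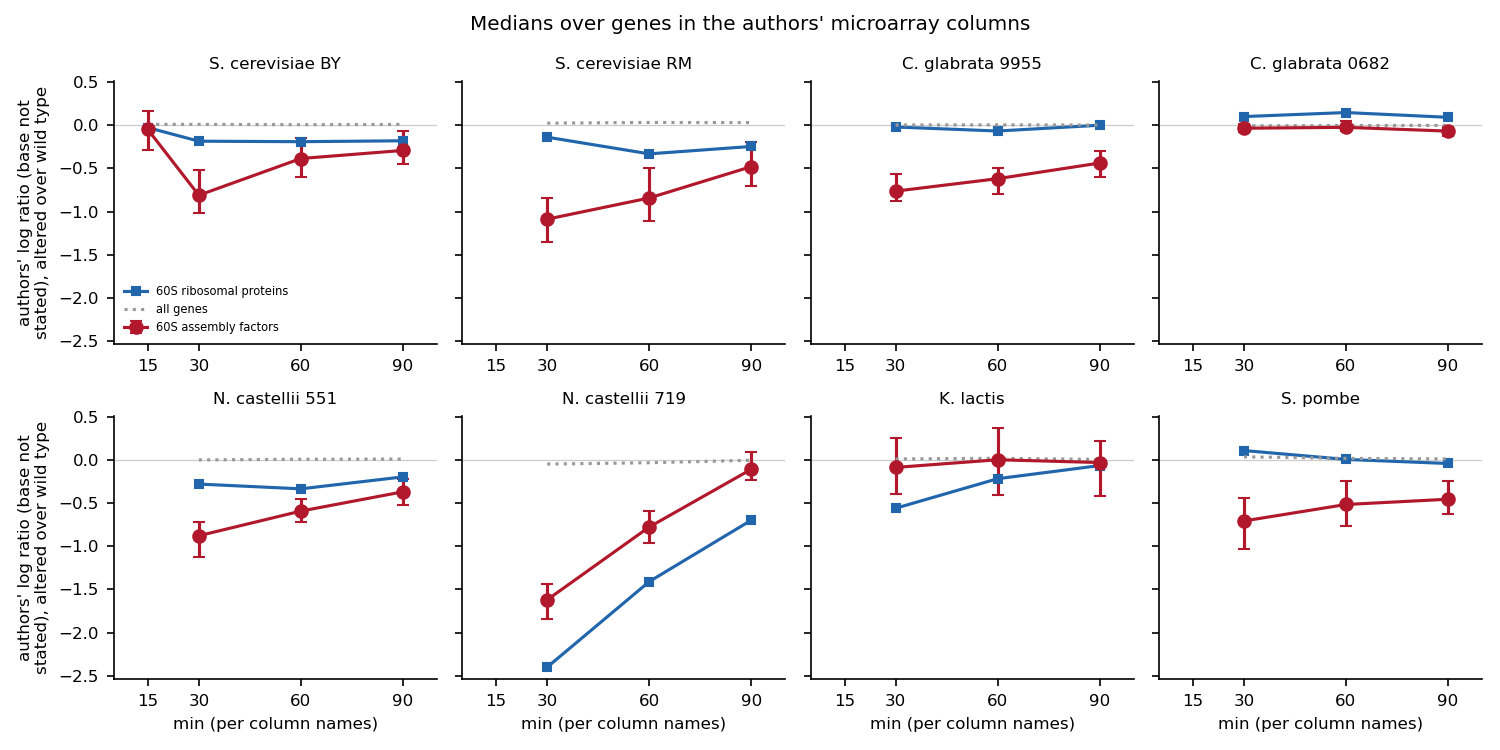
Median log ratio, altered over wild type, in the authors' deposited microarray columns (vertical axes, base not stated) against time in minutes as read from the column names (horizontal axes), for the members with their quartiles and for the large-subunit ribosomal proteins. The members are most negative at 30 min in S. cerevisiae, in C. glabrata delta CAGL0M09955g, in both N. castellii deletions and in S. pombe, and stay between -0.08 and 0.01 in K. lactis.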

How the data were processed

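RNA-seq reads, paired and 25 bases long, came from polyadenylated RNA. RSEM 1.2.11, Bowtie 1, edgeR and the S. pombe build ASM294v2 are named, with no role, in the submitters' processing notes, which give no build for the budding yeasts. The deposited count tables hold expected counts per gene, not normalized. The deposited fold-change tables hold log2 ratios from the RNA-seq, set beside the fit here only to check their sign and scale, beside microarray log ratios of unstated base, treated as a score. Other deposited columns, such as the orthogroup numbers, served only to match genes. 1 wild-type S. cerevisiae sample of 60 min was not analysed here.

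Expected counts were rounded to whole numbers. For each species all groups were fitted together with edgeR 4.0.16 (R 4.3.3): TMM normalization, filterByExpr defaults, quasi-likelihood tests, Benjamini-Hochberg adjustment over all genes tested, threshold 0.05. All 363 member rows passed the filter in S. cerevisiae, S. paradoxus, C. glabrata, N. castellii, K. lactis and S. pombe. CPM values use TMM-scaled library sizes, errors of log2 fold changes are SE and those of levels SD. Differences between phases or species were contrasts in 1 fit. The alternatives were edgeR's RLE scaling, library size alone, no filter on low counts, DESeq2 1.42.0, a replicate block, only the groups compared, each library left out in turn and, chosen after seeing the data, only members in an orthogroup with 1 S. cerevisiae name.

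Genes were named by rule: in each comparison up to 5 called members with the largest fall and 5 with the largest rise (mean log2 CPM of at least 4, groups not overlapping), up to 5 called against the main direction, and a panel of genes covering each role. The members and lists were chosen with earlier results of these data known. The fit was tested on simulated data: of genes changed by a log2 value of -1, 94% were recovered in the S. cerevisiae deletion design, 62% in S. paradoxus at 30 min, 78% in N. castellii delta Scas551.1 and 58% in S. pombe, and of those changed by -0.5, 50%, 20%, 34% and 24%. The simulation changed 50 genes at each of its log2 values, fewer in all than were called in the real data. The shares recovered in the real fits can therefore differ. Wrong calls were 3.95% of the simulated calls in S. cerevisiae, 7.69% in S. paradoxus at 30 min, 10% in delta Scas551.1 and 6.6% in S. pombe. Motifs were searched with Python 3.11.15 in the 250 bases before each start codon.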

Additional observations from a re-analysis of the deposited data

Results flagged for a closer look

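Several results were singled out because the deletion effect differed, by a test of the difference itself, between growth phases or between species. Within S. paradoxus the effect at 60 min differed from that at 30 min for 29 rows in the leading direction, less negative at 60 min, where 7.5% of all genes tested were called that way, and the effect at 30 min differed from that in log phase for 34, more negative at 30 min (11.7% of all genes). Between 60 min and log phase 6 of 63 rows were more negative at 60 min, a share near the 9.11% of all genes called that way. Wild type differed between log phase and lag in mating-type genes, which cannot be told apart from phase in the contrasts with log phase. By gene, the difference of effects (log2, later minus earlier) was -0.95 ± 0.13 for row Spar_7.268 of the RLP24/RPL24A/RPL24B orthogroup at 60 minus 30 min and 1.08 ± 0.30 for row Spar_4.689 of the SSF1/SSF2 orthogroup. Row Spar_7.268 may be a ribosomal protein gene. For 30 min minus log phase it was -1.29 ± 0.26 for Spar_4.689 and 0.56 ± 0.14 for DBP3. For 60 min minus log phase it was -2.01 ± 0.48 for SDO1 and 0.96 ± 0.20 for MAK16.

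Between species the numbers of members that differed from the S. cerevisiae deletion in the leading direction were 13 of 54 (S. paradoxus, more negative, 14.5% of all orthogroups), 19 of 55 (C. glabrata delta CAGL0M09955g, less negative, 20.7%), 40 of 55 (delta CAGL0D00682g, less negative, 19.7%), 14 of 56 (N. castellii delta Scas551.1, less negative, 21.8%), 27 of 56 (delta Scas719.24, less negative, 20.9%), 19 of 47 (K. lactis, more negative, 27.3%) and 24 of 51 (S. pombe, less negative, 19.8%). The share for delta Scas551.1 is near that of all orthogroups. The S. paradoxus count was 7 without wild-type log library A. For S. paradoxus and both N. castellii deletions, mating type and the SFP1 deletion cannot be told apart in these differences. The largest differences of log2 effects, other species minus S. cerevisiae, were as follows. In S. paradoxus they were -0.89 ± 0.22 for SDO1 and 0.50 ± 0.15 for DBP2. In C. glabrata delta CAGL0M09955g they were -0.91 ± 0.11 for MAK5 and 0.88 ± 0.11 for DBP3, and in delta CAGL0D00682g -0.46 ± 0.11 for MAK5 and 1.505 ± 0.11 for NOG2. In N. castellii delta Scas551.1 they were -1.27 ± 0.13 for MAK5 and 1.35 ± 0.16 for ALB1, and in delta Scas719.24 -0.80 ± 0.12 for MAK5 and 1.17 ± 0.20 for SDO1. In K. lactis they were -1.07 ± 0.11 for NOP4 and 2.05 ± 0.19 for SDO1. In S. pombe, whose labelled deletion libraries hold sfp1 reads, they were -0.92 ± 0.33 for RRP15 and 0.94 ± 0.13 for RIX1.

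MAK5 was thus the most negative difference in each of the 4 C. glabrata and N. castellii tests, all of which use the same S. cerevisiae libraries, in which MAK5 was higher in the deletion. SDO1 moved in opposite directions in S. paradoxus and K. lactis.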

How the results depend on the processing

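Of the recomputed counts 353 stayed within 1.5 times the count reported and 20 did not, and of the recomputed member values 2469 kept direction and call, 94 lost the call, 17 gained it and 15 changed sign. Scaling by library size alone moved most: lower calls were 36 in S. paradoxus log phase, 3 between its delta sfp1 lag times, 51 in N. castellii delta Scas719.24 and 4 between the N. castellii deletions, and rows differing between phases were 50 (60 minus 30 min), 54 (30 min minus log) and 12 (60 min minus log). For 60 min minus log the count was 10 with RLE, 12 without the filter and 10 with DESeq2. Without the filter it was 48 for 60 minus 30 min and 14 for the delta sfp1 lag times, and DESeq2 gave 20 for delta Scas719.24. The causes were not tested. Library size alone shifted the median of all genes by 0.23 (S. cerevisiae), 0.50, 0.28, 0.19 and 0.42 (S. paradoxus log phase, 60 min, wild-type times, delta sfp1 times), 0.16 (delta CAGL0M09955g), 0.15 (between the C. glabrata deletions), 0.17 and -0.15 (delta Scas551.1, delta Scas719.24), 0.33 (between them), 0.23 (K. lactis) and 0.12 (S. pombe), and RLE by -0.11 in S. paradoxus at 30 min. The share of calls that were lower, over all genes, went with library size alone to 26.2% (49.98% with TMM) in S. cerevisiae, 19.0% (56.8%) and 29.7% (49.3%) in S. paradoxus log phase and 60 min, 26.8% (55.3%) in delta CAGL0M09955g, 24.7% (48.9%) and 69.1% (43.3%) with Scas551.1 and Scas719.24 deleted, 33.2% (50.2%) in K. lactis and 40.9% (68.1%) in S. pombe. Likewise it went to 34.9% (54.3%) and 14.9% (64.9%) between lag times in wild type and delta sfp1, 21.1% (33.3%) in delta CAGL0D00682g, and 28.3% (58.2%) and 7.69% (53.3%) between the C. glabrata and the N. castellii deletions. Of the tests of differences it went to 27.8% (51.1%) for 60 minus 30 min, 74.6% (36.7%, with RLE 54.0%) for 30 min minus log and 63.2% (36.1%, with RLE 51.2%) for 60 min minus log, and to 69.6% (42.3%) and 58.8% (48.1%) for delta CAGL0D00682g and delta Scas719.24 minus S. cerevisiae.

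Values that changed sign (log2) were, with library size alone, YTM1 in S. cerevisiae (0.097), YTM1 and REA1 in S. paradoxus log phase (0.0034 and 0.39), NOP2, REA1 and YTM1 at 60 min (0.049, 0.093 and 0.11), SDO1 in delta Scas551.1 (0.051) and LSG1, ERB1 and RIX1 in S. pombe (0.018, 0.017 and 0.073). REA1 in S. paradoxus log phase was 0.024 without the filter and ran from -0.25 to 0.028 with a library left out (highest without wild-type C). SDO1 in delta Scas719.24 ran from -0.17 to 0.052 (0.023 without its library C, 0.052 without wild-type B), and RIX1 in S. pombe from -0.073 to 0.00885 (highest without the labelled deletion's library A). Of these YTM1 in S. paradoxus log phase had passed the test with TMM scaling and the others had not.

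With each library left out in turn, the counts ran from 45 to 48 (S. cerevisiae deletion), 0 to 0 (HA-tagged strain), 54 to 59, 61 to 62 and 51 to 54 (S. paradoxus log phase, 30 and 60 min), 58 to 59 and 14 to 29 (lag times in wild type and delta sfp1), 22 to 29 (60 minus 30 min), 26 to 34 (30 min minus log), 3 to 6 (60 min minus log), 53 to 56 (delta CAGL0M09955g), 0 to 0 (delta CAGL0D00682g), 55 to 60 (between these), 41 to 47 (delta Scas551.1), 16 to 35 (delta Scas719.24), 23 to 31 (between these), 47 to 48 (K. lactis) and 10 to 22 (S. pombe). Against the S. cerevisiae deletion they ran from 7 to 16 (S. paradoxus), 15 to 20 and 37 to 40 (C. glabrata), 12 to 17 and 26 to 30 (N. castellii), 15 to 20 (K. lactis) and 23 to 26 (S. pombe).

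No shared effect of a replicate letter was seen: same-letter correlations had medians from -0.09 to 0.02 by species, and at most 2 pairs of a species were over 0.1. With 3 libraries per group such correlations cannot exclude pairing. With the letter as a replicate block the counts were 48 in S. cerevisiae, 58, 62 and 54 in S. paradoxus, 55 in delta CAGL0M09955g, 48 and 30 in the N. castellii deletions, 48 in K. lactis and 14 in S. pombe, all within 1.5 times the counts reported. Of falls of 0.5 in simulated data 20% were recovered in S. paradoxus at 30 min, 24% in S. pombe, 34% in delta Scas551.1 and 50% in S. cerevisiae. Small changes were thus missed in each simulated design and can be missed in the real fits. The simulation changed fewer genes than were called in the real data, so the shares recovered there can differ. The part of depth in this was not tested.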
